A study of Caenorhabditis elegans with 32 samples.

Results

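The p38 mitogen-activated protein (MAP) kinase pathway of innate immunity was followed in whole worms of Caenorhabditis elegans through 7 genes chosen by name out of the 46904 genes of the deposited table. They are tir-1, nsy-1, sek-1, pmk-1, vhp-1, atf-7 and T24B8.5. All 7 were in the table, and all 7 passed the filter on low counts. The study put wild type (WT) worms and hrde-1 mutants into the groups normoxia and hypoxia in each of the generations P0, F1, F2 and F3, which gives 16 groups of 2 poly(A) RNA libraries. HRDE-1 is an Argonaute protein of germline nuclei that acts in inherited RNA interference, and the labels name no allele for the mutant and no strain for WT. L4 larvae were exposed to 0.1% oxygen for 16 h at 20 °C and then returned to air with about 20% oxygen. Whether worms of F1, F2 and F3 were exposed themselves is not stated, so for these generations hypoxia is the name of a group and nothing more. A hypoxia effect below means the hypoxia group against the normoxia group of the same strain and generation, whatever its source. The labels do not say that replicates are separate cultures. The p-values then rest on the spread between these libraries alone, which may be technical. The design compares expression between the treatments and the 2 strains in each of the 4 generations.

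In this pathway TIR-1, a TIR domain protein related to mammalian SARM, activates the MAP kinase kinase kinase NSY-1. NSY-1 phosphorylates the MAP kinase kinase SEK-1, which activates the p38 MAP kinase PMK-1. VHP-1 is a dual specificity phosphatase that counteracts MAP kinases, and ATF-7 is a bZIP transcription factor that PMK-1 phosphorylates. T24B8.5 is expressed in the intestine, and a reporter of its promoter is a standard readout of PMK-1 activity. The pathway is regulated by phosphorylation, and transcript levels do not measure it.

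Libraries held between 9722580 and 16555982 estimated counts. The F2 WT normoxia columns are each a mean of 3 libraries, 2 of which are the F1 and F3 WT normoxia libraries of the same replicate number. Multiplied by 3, they fell below the sum of those columns in 0 genes for this pairing and in at least 1434 genes for the other pairings. What is left after subtraction is called the remainder and is taken by inference as the F2 WT normoxia library. The other 30 libraries carry all results except those that need this group. Levels are given as CPM, the counts of a gene scaled to a common library size with TMM factors. The hrde-1 transcript stood between 344 and 612 CPM in the normoxia libraries of the mutant, and between 219 and 585 CPM in those of WT without F2. In hypoxia it stood between 420.4 and 565 CPM in the mutant and between 685 and 863 CPM in WT, which do not overlap. As the labels name no allele, these levels were not used as a check of the strain label. Of the P0 hrde-1 normoxia pair, replicate 2 stood apart from replicate 1 in several of the 7 genes. The 7 genes were therefore also fitted without each of these libraries. Other genes named below were not followed in fits that leave out a library. The rounded counts of replicates differed beyond counting noise in each group. No intestinal, germline, neuronal, muscle, epidermal or sperm marker used here was at 0 in both libraries of a group. In bulk RNA of whole worms, fewer cells of a type and less RNA per cell cannot be told apart.

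In the WBcel235 assembly, tir-1 lies on chromosome III from 3869590 to 3901642 on the minus strand. The gene nsy-1 lies on chromosome II from 5022757 to 5029999 on the plus strand. The gene sek-1 is on chromosome X from 7816734 to 7821036, and pmk-1 is on chromosome IV from 8148794 to 8151266, both on the plus strand. The phosphatase gene vhp-1 is on chromosome II from 5323276 to 5340829 on the plus strand, and atf-7 is on chromosome III from 4491627 to 4499045 on the minus strand. T24B8.5 spans chromosome II from 9082626 to 9083193 on the minus strand and has the symbol sysm-1 in the annotation. All 7 are protein coding, and counts are over whole genes. Exons overlap those of another gene for tir-1 (the piRNA 21ur-15583, opposite strand), nsy-1 (wdr-83, opposite, and F59A6.13, same strand), sek-1 (R03G5.6, opposite) and atf-7 (C07G2.5, same strand). Whether counting used strand is not stated, so values of these 4 genes may hold reads of their neighbours.

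Per length, the transcription factor gene stood highest in the cascade and the adaptor gene lowest. The median level over the 30 libraries, per kilobase of exon, was 124 CPM for atf-7. It was 44.8 CPM per kilobase for T24B8.5 and 33.7 for vhp-1. Among the kinases it was 18.6 for sek-1, 14.4 for nsy-1 and 8.46 for pmk-1. For tir-1 it was 4.28 CPM per kilobase. T24B8.5 varied most, from 0.0778 to 62.3 CPM, and atf-7 varied least, from 228 to 398.5 CPM, 1.75 times. The ratio of the highest to the lowest library was 6.98 for tir-1, 4.02 for pmk-1, 2.73 for nsy-1, 2.18 for sek-1 and 1.91 for vhp-1.

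The low end of T24B8.5 lay in WT normoxia, where its level differed between the generations. As each group holds libraries of a single generation, generation cannot be told apart from harvest or culture. In F1 WT normoxia it stood at 0.179 and 0.0778 CPM, which rests on 2 estimated counts and 1. In F3 WT normoxia it stood at 2.1 and 1.43 CPM, and in P0 WT normoxia at 11.47 and 9.28 CPM. The 24 libraries of the other groups all lay higher than the F1 and F3 WT normoxia libraries, between 11.4 and 62.3 CPM with a median of 25.9. P0 WT normoxia replicate 1 lay just within that range. The F2 WT normoxia remainder stood at 21.1 and 11.2 CPM, while the deposited F2 columns, which hold the F1 and F3 libraries again, read 7.66 and 3.79 CPM. The order of the 16 group means began with F1, F3 and P0 WT normoxia. F1 did not overlap F3, and F3 did not overlap P0. The next groups from P0 WT normoxia to F2 WT hypoxia overlapped their neighbours, with means from 10.4 to 17.7 CPM. The highest mean was that of P0 hrde-1 hypoxia, at 51.5 CPM, from libraries at 40.8 and 62.3 CPM that did not overlap the next group.

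**Figure D1:**
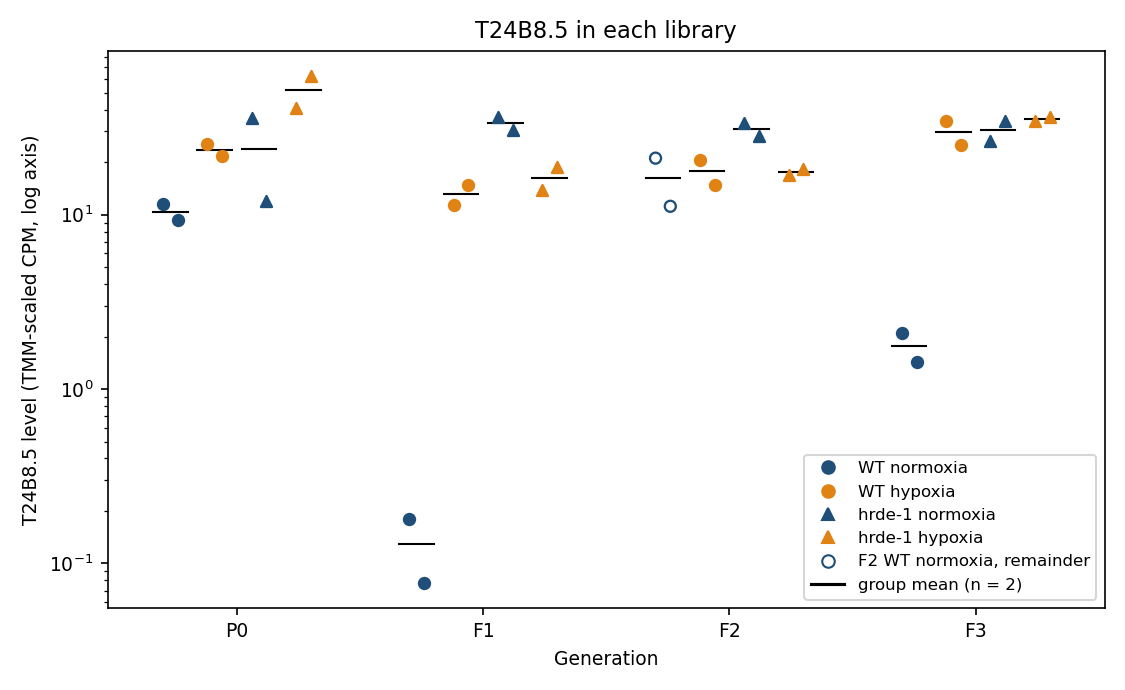
T24B8.5 in each library by generation, as TMM-scaled CPM on a log axis; circles are WT, triangles hrde-1, blue normoxia, orange hypoxia, open circles the F2 WT normoxia remainder, and the black line is the mean of 2 libraries. The F1 WT normoxia libraries lie at 0.179 and 0.0778 CPM and those of F3 WT normoxia at 2.1 and 1.43 CPM, below all other groups.

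The adaptor and kinase genes showed the opposite arrangement, with mostly high levels in WT normoxia. The level of tir-1 was 92.1 and 106 CPM in P0 WT normoxia, 73.3 and 47.8 in F1 and 102 and 115.1 in F3. In the 24 libraries of other groups tir-1 lay between 16.5 and 81.6 CPM, and the 81.6 is P0 hrde-1 normoxia replicate 2. Without that library none of the other 23 exceeded 36.8 CPM. The F2 WT normoxia remainder, at 17.3 and 24.6 CPM, lay with these other groups and not with WT normoxia of the other generations. For the MAP kinase kinase kinase gene nsy-1, the 6 WT normoxia libraries lay between 107 and 146 CPM. The other libraries of nsy-1 lay between 55.3 and 79.5 CPM, apart from the same P0 hrde-1 normoxia replicate 2 at 151 CPM. The MAP kinase kinase gene sek-1 lay between 43.5 and 61.7 CPM in the 6 WT normoxia libraries and between 28.3 and 50.4 in the other 24, so its ranges overlap. For pmk-1 the high values were those of P0 WT normoxia, 24 and 41.2 CPM. In F1 and F3 WT normoxia pmk-1 read 13.6 to 20.8 CPM, within or near the 10.2 to 20.3 CPM of the other 24 libraries.

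The phosphatase and transcription factor genes were less variable. The level of vhp-1 ran from 79.8 to 117 CPM in the 6 WT normoxia libraries and from 72.7 to 138.5 CPM in the other 24. The level of atf-7 ran from 228 to 292 CPM in WT normoxia and from 280.3 to 398.5 CPM in the others. Of the other 24 libraries, P0 hrde-1 normoxia replicate 2, at 280.3 CPM, alone lay below a WT normoxia library, those of F1 at 292 and 283 CPM.

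**Figure D2:**
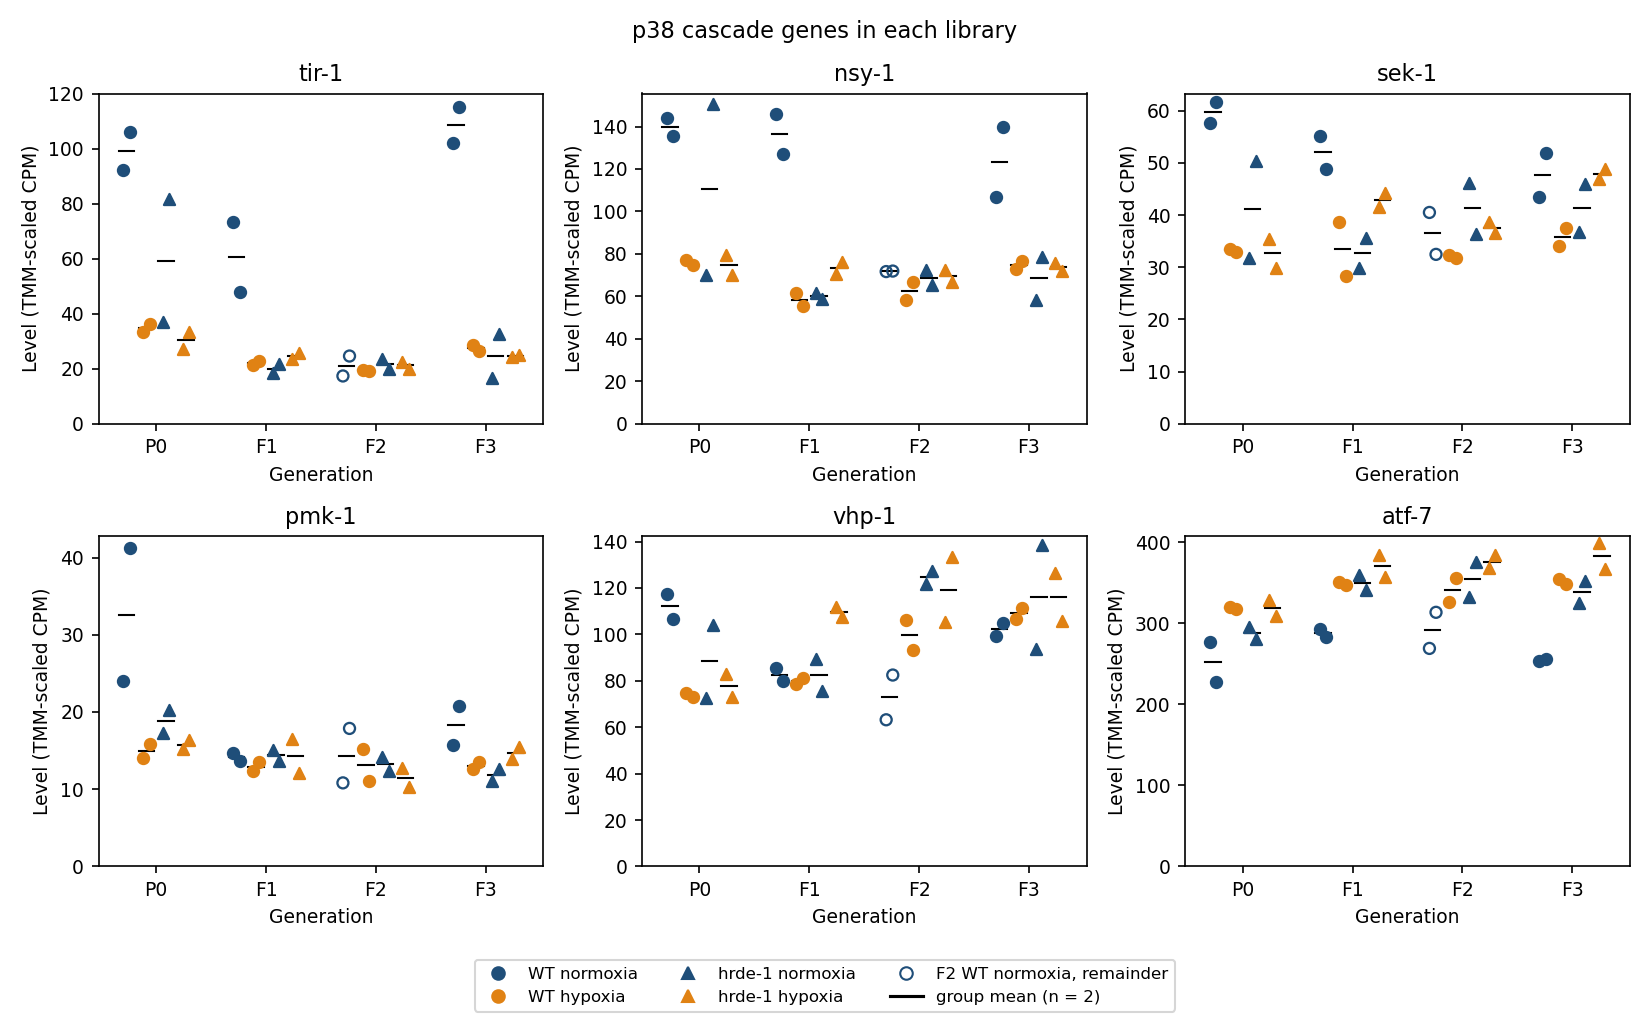
Levels of tir-1, nsy-1, sek-1, pmk-1, vhp-1 and atf-7 in each library by generation, as TMM-scaled CPM on axes that start at 0, with symbols as in the plot of T24B8.5. WT normoxia of P0, F1 and F3 lies from 47.8 to 115.1 CPM for tir-1 and from 228 to 292 CPM for atf-7; of the other groups outside F2 WT normoxia, P0 hrde-1 normoxia replicate 2 alone reaches into these ranges, at 81.6 and 280.3 CPM.

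After hypoxia in P0 of WT, the transcripts of the adaptor, the 3 kinases and the phosphatase fell, and those of atf-7 and T24B8.5 rose. The level of tir-1 was 92.1 and 106 CPM in normoxia and 33.4 and 36.2 CPM in hypoxia. The quasi-likelihood test of edgeR gave tir-1 a log2 fold change of -1.51 ± 0.29 (SE) and an adjusted p of 0.000576. For pmk-1 the values went from 24 and 41.2 CPM to 14.1 and 15.9 CPM, a log2 fold change of -1.12 ± 0.24 (adjusted p 0.00116). Levels did not overlap between the groups in either gene. For nsy-1 the log2 fold change was -0.88 ± 0.22 (adjusted p 0.00445), for sek-1 -0.84 ± 0.19 (0.00205) and for vhp-1 -0.60 ± 0.17 (0.00967). T24B8.5 went from 11.47 and 9.28 CPM to 25.4 and 21.6 CPM, with a log2 fold change of 1.18 ± 0.35 (adjusted p 0.0113). The rise of atf-7, from 276 and 228 CPM to 320.4 and 317 CPM, was small, at 0.34 ± 0.10 (adjusted p 0.0139). So 7 of 7 genes passed the threshold of 0.05, 2 higher and 5 lower, where 41.9% of all genes tested did. Their median log2 fold change was -0.84, against -0.14 over all genes.

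These P0 calls rest on few libraries. Without P0 WT normoxia replicate 2, the calls of pmk-1 (log2 fold change -0.65, adjusted p 0.064), atf-7 (0.23, 0.17) and T24B8.5 (1.06, 0.102) were lost and 4 remained. The call of vhp-1 was lost without P0 WT normoxia replicate 1 (adjusted p 0.0837) and without either hypoxia library (0.0788 and 0.0949). The call of nsy-1 was lost without P0 WT hypoxia replicate 2 (0.0509), and that of T24B8.5 without hypoxia replicate 1 (0.0569).

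In F1 WT the hypoxia group had far more T24B8.5 transcript than the normoxia group and less of tir-1, nsy-1 and sek-1. T24B8.5 read 0.179 and 0.0778 CPM in normoxia against 11.4 and 14.9 CPM in hypoxia. That is a ratio of 106 with a 95% counting interval from 35.8 to 515, which covers counting error only. The fitted log2 fold change, 6.60 ± 0.61 (adjusted p 6.6e-07), depends on the prior count because the normoxia group has 3 counts in all. Its SE is derived from that value and the test statistic, and it is too small to serve as its precision. For tir-1 the values were 73.3 and 47.8 CPM against 21.5 and 22.7 CPM, a log2 fold change of -1.46 ± 0.30 (adjusted p 0.00242). For nsy-1 they were 146 and 127 CPM against 61.7 and 55.3 CPM, a log2 fold change of -1.22 ± 0.23 (adjusted p 0.00118). Neither pair of groups overlapped. For sek-1 the log2 fold change was -0.64 ± 0.19 (adjusted p 0.0328). The values of pmk-1 (-0.13 ± 0.24), vhp-1 (-0.05 ± 0.17) and atf-7 (0.28 ± 0.10, adjusted p 0.0838) did not pass. In all, 4 of 7 genes passed, 1 higher and 3 lower, where 13.9% of all genes did. Without F1 WT normoxia replicate 1, tir-1 read -1.12 with an adjusted p of 0.0542 and sek-1 -0.55 with 0.211, which left 2 calls. The call of sek-1 was also lost without F1 WT normoxia replicate 2 (adjusted p 0.0578) and without F1 WT hypoxia replicate 2 (0.329). With DESeq2's size factors in the same fit, atf-7 passed (0.33, adjusted p 0.0388).

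In F3 WT T24B8.5 was again higher and tir-1 lower with hypoxia. T24B8.5 read 2.1 and 1.43 CPM in normoxia against 34.3 and 25.1 CPM in hypoxia, a ratio of 17.3 with a 95% counting interval from 13.1 to 23.3. Its log2 fold change was 4.08 ± 0.41 (adjusted p 7.92e-06). For tir-1 the values were 102 and 115.1 CPM against 28.5 and 26.3 CPM, and the log2 fold change was -1.98 ± 0.30 (adjusted p 0.000495). The level of atf-7 went from 253 and 256 CPM to 354 and 348 CPM, a log2 fold change of 0.46 ± 0.10 (adjusted p 0.0114). For each of these genes the hypoxia and normoxia libraries lay apart. The value of nsy-1, -0.72 ± 0.22, had an adjusted p of 0.0569, and it passed without F3 WT normoxia replicate 1 (-0.90, adjusted p 0.0489), in DESeq2 (0.027) and under 5 other settings (0.028 to 0.0487). The values of sek-1 (-0.41 ± 0.19), pmk-1 (-0.49 ± 0.24) and vhp-1 (0.09 ± 0.17) did not pass. Thus 3 of 7 passed, 2 higher and 1 lower, where 6.62% of all genes did. The call of atf-7 was lost without any single one of the 4 libraries, with adjusted p from 0.0525 to 0.116.

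F2 WT stood apart from F1 and F3 when the remainder was used for normoxia. T24B8.5 read 21.1 and 11.2 CPM in normoxia against 20.5 and 14.9 CPM in hypoxia, with a log2 fold change of 0.14 ± 0.37. The level of tir-1 was 17.3 and 24.6 CPM against 19.6 and 19.2 CPM, with a log2 fold change of -0.11 ± 0.30. Libraries of the groups overlapped in both genes. By edgeR 0 of 7 genes passed, as did 0% of all genes, and DESeq2 also called 0 of the 7. At an unadjusted p under 0.05 there were 2 of the 7, vhp-1 (0.45 ± 0.18) and atf-7 (0.23 ± 0.11), and 318 of all genes, while DESeq2 called 1 of all genes. With the deposited columns, which hold F1 and F3 normoxia libraries, 3 of the 7 passed, with T24B8.5 at 1.64 (adjusted p 0.0172), tir-1 at -1.77 (0.00138) and nsy-1 at -0.82 (0.0298). No value of F2 WT normoxia is thus free of the inference on the remainder.

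The hypoxia effect on T24B8.5 in WT differed between P0 and the mean of F1 and F3. The F2 effect, which rests on the remainder, is not in that mean. The mean includes F1 WT normoxia, with 3 counts in all, so its value depends on the prior count. Set against the mean of F1 and F3, its hypoxia effect in P0 was lower by 4.16 ± 0.53 on the log2 scale (adjusted p 4.96e-05, 1 of 7 genes, where 15.3% of all genes passed). The differences of pmk-1 (-0.82 ± 0.29, adjusted p 0.0616) and vhp-1 (-0.62 ± 0.21, 0.0519) did not pass in the edgeR fit of 30 libraries, and both passed in DESeq2 (0.0405 and 0.0333) and with the compared groups alone (0.042 and 0.00432). Without P0 WT normoxia replicate 1, pmk-1 also passed (-1.17, adjusted p 0.0124). Averaged over F1 and F3, hypoxia went with lower tir-1 (-1.72 ± 0.21), nsy-1 (-0.97 ± 0.16) and sek-1 (-0.52 ± 0.14) and with higher atf-7 (0.37 ± 0.07) and T24B8.5. These 5 of 7 genes passed, with adjusted p up to 0.00798, where 25.6% of all genes did. The call of sek-1 was lost without F1 WT hypoxia replicate 2 (adjusted p 0.0608) and without F3 WT normoxia replicate 2 (0.0558).

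In hrde-1 mutants none of the 7 genes passed between hypoxia and normoxia in any generation in the edgeR fit of 30 libraries, and some passed under other settings in P0 and F1. Of all genes, 5.84% passed in P0 and 8.35% in F1, with 0% in F2 and 0.0129% in F3. In P0 the pattern of values resembled WT in sign. The level of tir-1 was 36.8 and 81.6 CPM in normoxia and 27.2 and 33.4 CPM in hypoxia, a log2 fold change of -0.96 ± 0.29 (adjusted p 0.0543). T24B8.5 read 35.7 and 12 CPM in normoxia against 40.8 and 62.3 CPM in hypoxia, a log2 fold change of 1.11 ± 0.34 (adjusted p 0.0602). In each of these genes the normoxia replicates lay farther apart than the hypoxia replicates, with replicate 2 close to WT normoxia. Without normoxia replicate 1, 3 of the 7 passed, tir-1 (-1.34, adjusted p 0.00208), nsy-1 (-0.92, 0.00134) and T24B8.5 (2.19, 0.000181). At an unadjusted p under 0.05 there were 3 of the 7 in P0, and DESeq2 called 2, tir-1 and T24B8.5. Of all genes 3575 were under that unadjusted p, and DESeq2 called 1418. With no filter on low counts edgeR also called tir-1 (adjusted p 0.0346) and T24B8.5 (0.0399), and tir-1 passed with a filter of 5 CPM (0.0479) and with the deposited F2 columns (0.0422).

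In the later generations of the mutant the call of T24B8.5 depended on the fit. In F1 hrde-1 it read 36.1 and 30.7 CPM in normoxia against 13.8 and 18.8 CPM in hypoxia, a log2 fold change of -1.04 ± 0.35 (adjusted p 0.0704). Fitted on the compared groups alone, the F1 difference of T24B8.5 was -1.02 (adjusted p 0.000806), and vhp-1 (0.42, 0.0036), nsy-1 (0.31, 0.0195) and sek-1 (0.42, 0.0226) passed as well. In F2 it read 33.3 and 28.4 CPM in normoxia against 16.9 and 18.2 CPM in hypoxia, a log2 fold change of -0.82 ± 0.35 (adjusted p 0.962). In both generations the normoxia libraries lay above the hypoxia libraries. In F3 the normoxia values of 26.5 and 34.5 CPM and the hypoxia values of 34.4 and 36.4 CPM overlapped. For tir-1 the F1 value was 0.29 ± 0.30, that of F2 -0.02 ± 0.30 and that of F3 -0.003 ± 0.29. At an unadjusted p under 0.05 there were 2 of the 7 in F1, T24B8.5 and vhp-1 (0.41 ± 0.17), 1 in F2, T24B8.5, and 0 in F3. DESeq2 called 1 of the 7 in F1, T24B8.5, and 0 in F2 and F3. Of all genes, 3922 in F1, 783 in F2 and 1016 in F3 were under an unadjusted p of 0.05, and DESeq2 called 1758, 2 and 11. Averaged over F1 to F3, the hypoxia effect of T24B8.5 in the mutant was -0.55 ± 0.20 (adjusted p 0.142), and 0 of 7 genes passed by edgeR, where 2.32% of all genes did. At an unadjusted p under 0.05 there was 1 of the 7, and DESeq2 called 0, against 2961 and 866 of all genes.

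**Figure D3:**
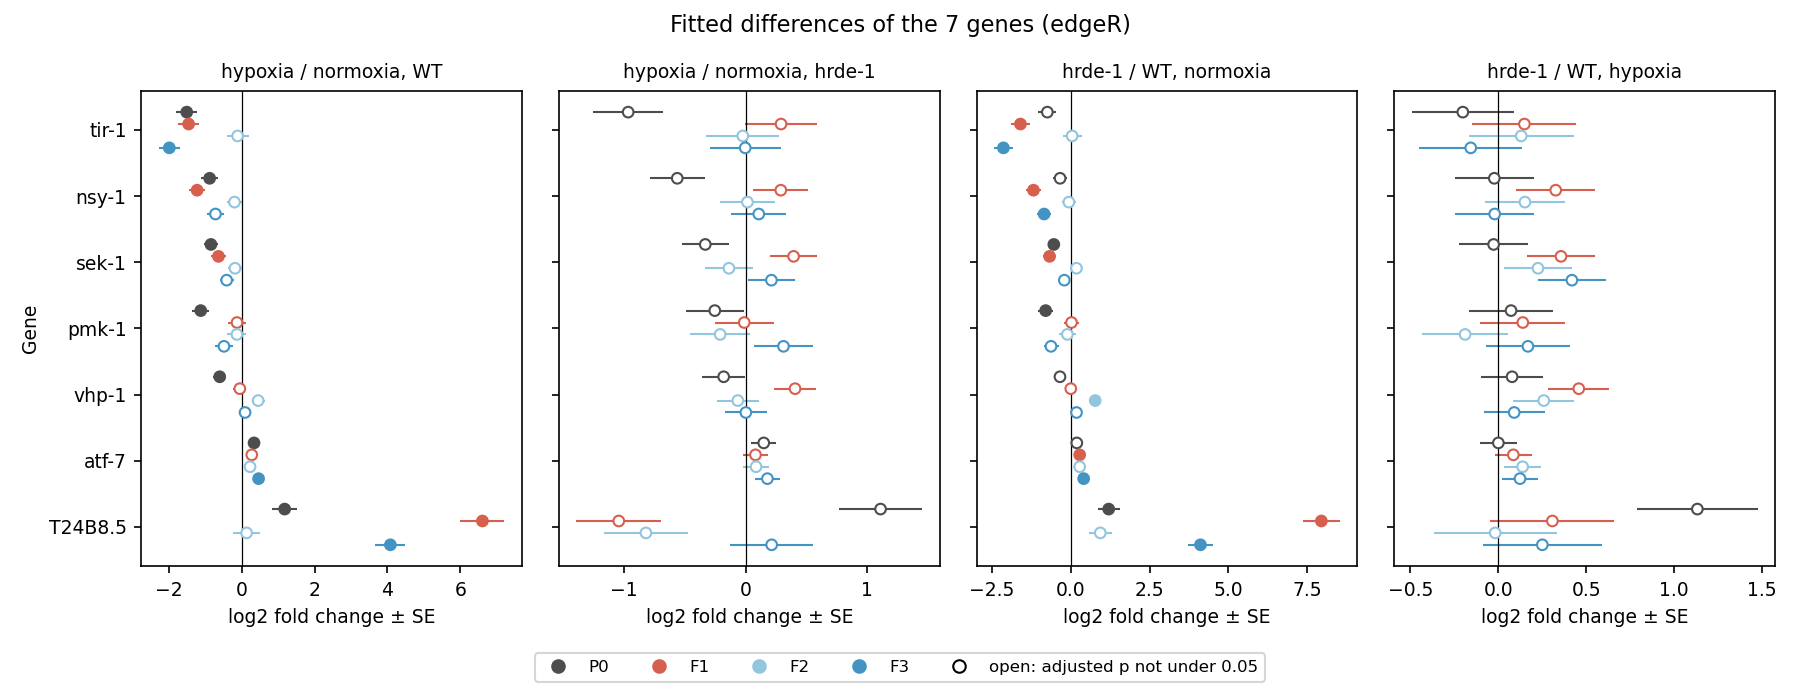
Fitted log2 fold changes (points, bars ± SE) of the 7 genes in the 4 generations, for hypoxia against normoxia in WT and hrde-1 and for hrde-1 against WT in normoxia and hypoxia; filled points have an adjusted p under 0.05, and F2 values that use WT normoxia rest on the remainder. Filled points lie in the panels for hypoxia in WT and for the strains in normoxia, where T24B8.5 reaches 6.60 and 7.95 in F1, and none lies in the panels for the mutant's hypoxia effect and for the strains in hypoxia; each panel has its own axis range.

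The difference between the hypoxia and normoxia groups was not the same in the 2 strains in F1 and F3. This comparison shares its WT normoxia libraries with the comparisons within WT and between the strains in normoxia, so it is no separate support. In F1 the effect of the mutant minus that of WT was 1.75 ± 0.42 for tir-1 (adjusted p 0.0144), 1.51 ± 0.32 for nsy-1 (0.00727), 1.03 ± 0.28 for sek-1 (0.023) and -7.64 ± 0.72 for T24B8.5 (1.97e-06). These 4 of 7 passed where 12.6% of all genes did. The T24B8.5 value again rests on a group with 3 counts, and the SE is not its precision. In F3 the difference was 1.98 ± 0.41 for tir-1 (adjusted p 0.028) and -3.87 ± 0.53 for T24B8.5 (0.000742), so 2 of 7 passed where 0.657% of all genes did. With the compared groups alone neither F3 call held, at 1.92 for tir-1 (adjusted p 0.317) and -3.93 for T24B8.5 (0.109). In P0 and F2, 0 of 7 passed by edgeR and by DESeq2, with 0.328% and 0% of all genes. At an unadjusted p under 0.05 there was 1 of the 7 in P0, pmk-1 (0.87 ± 0.34), and 0 in F2. Of all genes, 2717 in P0 and 367 in F2 were under an unadjusted p of 0.05, and DESeq2 called 812 and 1.

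Leaving out single libraries ended calls of the cascade genes and none of T24B8.5 in these differences. In F1, tir-1 and sek-1 lost their calls without WT normoxia replicate 1 (adjusted p 0.0822 and 0.0957), without WT hypoxia replicate 2 (0.0537 and 0.113) and without hrde-1 normoxia replicate 1 (0.0606 and 0.0918). The call of sek-1 was also lost without hrde-1 hypoxia replicate 1 (0.0576) or replicate 2 (0.0707). In F3, tir-1 lost its call without WT normoxia replicate 2 (0.168), WT hypoxia replicate 1 (0.102) or 2 (0.126), hrde-1 normoxia replicate 1 (0.125) and hrde-1 hypoxia replicate 1 (0.0821) or 2 (0.114). Without F3 hrde-1 normoxia replicate 2, nsy-1 passed (1.02, adjusted p 0.0269). In P0, tir-1 (1.16, adjusted p 0.047) and nsy-1 (0.91, 0.0177) passed without hrde-1 normoxia replicate 2.

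Between the strains in normoxia, mutants had more T24B8.5 than WT in P0, F1 and F3. Where adaptor and kinase transcripts passed, they were lower in the mutant. This comparison shares its WT normoxia libraries with that of hypoxia against normoxia in WT, so the values of both are given side by side and not as separate support. In F1, T24B8.5 was at 36.1 and 30.7 CPM in hrde-1 and at 0.179 and 0.0778 CPM in WT, a ratio of 269.9 with a 95% counting interval from 92 to 1312. Its fitted log2 fold change of 7.95 ± 0.59 (adjusted p 9.65e-09) depends on the prior count, and the SE is not its precision. In F3 the mutant stood at 26.5 and 34.5 CPM and WT at 2.1 and 1.43 CPM, a ratio of 17.7 with an interval from 13.4 to 23.8. The log2 fold change in F3 was 4.12 ± 0.41 (adjusted p 9.65e-07). In P0 the mutant libraries stood at 35.7 and 12 CPM and those of WT at 11.47 and 9.28 CPM, with a log2 fold change of 1.20 ± 0.35 (adjusted p 0.0178). The strains lay apart in P0, F1 and F3, and in P0 the second mutant library lay next to WT. In F2, with the remainder, the mutant stood at 33.3 and 28.4 CPM and WT at 21.1 and 11.2 CPM. That difference did not pass.

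Among the cascade genes, tir-1 was lower in the mutant by 1.60 ± 0.30 in F1 (log2 fold change -1.60, adjusted p 0.000716) and by 2.14 ± 0.30 in F3 (-2.14, 6.4e-05). The values of nsy-1 were -1.19 ± 0.23 in F1 (adjusted p 0.00089) and -0.85 ± 0.23 in F3 (0.0202). Those of sek-1 were -0.67 ± 0.19 in F1 (0.0127) and -0.54 ± 0.19 in P0 (0.0481). The kinase gene pmk-1 passed in P0 alone, at -0.80 ± 0.24 (0.0196). The value of atf-7 was 0.28 ± 0.10 in F1 (0.0415) and 0.41 ± 0.10 in F3 (0.0154), both higher in the mutant. So 3 of 7 genes passed in P0, 5 in F1 and 4 in F3, against 22.5%, 34.5% and 8.86% of all genes. With the compared groups alone 0 passed in P0, with T24B8.5 at 1.26 (adjusted p 0.229), pmk-1 at -0.75 (0.221) and sek-1 at -0.50 (0.276). In F3 that setting left T24B8.5, with tir-1 at -2.09 (0.127), nsy-1 at -0.80 (0.423) and atf-7 at 0.46 (0.539). The P0 call of sek-1 was also lost with no filter (0.0612), with DESeq2's size factors (0.0552) and with a replicate block (0.052). The atf-7 calls were also lost with no filter, in F1 (0.114) and F3 (0.0503). In F2, with the remainder, vhp-1 alone of the 7 passed, at 63.2 and 82.5 CPM in WT and 122 and 127 CPM in the mutant, a log2 fold change of 0.78 ± 0.18 (adjusted p 0.0158), where 4.51% of all genes passed. Its call was lost without F2 WT normoxia replicate 1 (adjusted p 0.187) or F2 hrde-1 normoxia replicate 1 (0.062), with the compared groups alone (0.204) and with the deposited columns (0.071).

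The P0 strain comparison depended on single libraries. Without P0 hrde-1 normoxia replicate 2, 6 of the 7 genes passed, among them tir-1 (-1.35, adjusted p 0.00175), nsy-1 (-0.92, 0.000984) and vhp-1 (-0.55, 0.0346). Without replicate 1 of that group 0 passed, with T24B8.5 at 0.21 (adjusted p 0.743), pmk-1 at -0.68 (0.182) and sek-1 at -0.24 (0.553). Without P0 WT normoxia replicate 2 also 0 passed, with T24B8.5 at 1.09 (0.174), pmk-1 at -0.34 (0.44) and sek-1 at -0.48 (0.231). Without P0 WT normoxia replicate 1, sek-1 lost its call (0.103) and atf-7 gained one (0.39, 0.0354). In F1, sek-1 lost its call without WT normoxia replicate 1 (0.117) or hrde-1 normoxia replicate 1 (0.125), and atf-7 lost its call without any 1 of the 4 libraries (0.093 to 0.197). In F3, nsy-1 lost its call without WT normoxia replicate 2 (0.312) or hrde-1 normoxia replicate 1 (0.13), and atf-7 without WT normoxia replicate 1 (0.0873) or 2 (0.0723).

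Averaged over P0, F1 and F3, 6 of 7 genes passed between the strains in normoxia, where 42.4% of all genes did. T24B8.5 (4.42 ± 0.27) and atf-7 (0.29 ± 0.06) were higher in the mutant, and tir-1 (-1.49 ± 0.17), nsy-1 (-0.79 ± 0.13), sek-1 (-0.47 ± 0.11) and pmk-1 (-0.47 ± 0.14) were lower. The T24B8.5 value includes F1 WT normoxia, with 3 counts in all, and depends on the prior count. The call of pmk-1 was lost without P0 WT normoxia replicate 2 (adjusted p 0.119), without F3 WT normoxia replicate 2 (0.0733), with the compared groups alone (0.102) and with P0 left out of the mean (-0.30, 0.162). That last alternative was chosen after the data had been seen.

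Between the strains in hypoxia, 0 of 7 genes passed in each generation in the edgeR fit of 30 libraries, where the share of all genes was 2.14% (P0), 1.98% (F1), 6.43% (F2) and 10.8% (F3). At an unadjusted p under 0.05 there was 1 of the 7 in each of P0 (T24B8.5), F1 (vhp-1) and F3 (sek-1) and 0 in F2. DESeq2 called 0 of the 7 in each. Of the 15536 genes tested, 1893 (P0), 1658 (F1), 3182 (F2) and 4783 (F3) were under that unadjusted p. DESeq2 called 466, 404, 1388 and 2458 of all genes. The largest value was that of T24B8.5 in P0, 1.13 ± 0.34 (adjusted p 0.109), from 25.4 and 21.6 CPM in WT and 40.8 and 62.3 CPM in the mutant, which do not overlap. With the compared groups alone T24B8.5 passed in P0 (1.096, adjusted p 0.00759) and vhp-1 in F1 (0.46, 0.0102). Averaged over the 4 generations, 0 of 7 passed by edgeR, where 25.9% of all genes did. The values came to 0.42 ± 0.17 for T24B8.5 (adjusted p 0.0791), 0.24 ± 0.10 for sek-1 (0.0689) and 0.22 ± 0.09 for vhp-1 (0.0654), all 3 with an unadjusted p under 0.05. Of all genes 5953 were under that unadjusted p. DESeq2 called 2 of the 7, sek-1 (0.0496) and vhp-1 (0.0444), and 4406 of all genes. With the compared groups alone all 3 passed (0.00619 to 0.0104). Without F1 WT hypoxia replicate 1, sek-1 passed (adjusted p 0.0285), and without F2 hrde-1 hypoxia replicate 1, vhp-1 passed (0.0438).

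Across generations within a group, T24B8.5 differed in WT normoxia and in hrde-1 hypoxia. Among P0, F1 and F3 of WT normoxia its adjusted p was 4.26e-07, and that of pmk-1 was 0.00111. These 2 of 7 passed where 36.5% of all genes did, and pmk-1 lost its call without P0 WT normoxia replicate 2 (0.0642). With the compared groups alone tir-1 (0.0209) and vhp-1 (0.042) passed there as well. In WT hypoxia, where 11.6% of all genes passed, 0 of 7 did by edgeR and 0 by DESeq2. At an unadjusted p under 0.05 were 3 of the 7 (tir-1, vhp-1 and T24B8.5) and 3677 of all genes, and DESeq2 called 2507. With the compared groups alone 4 of 7 passed there, tir-1 (0.000812), nsy-1 (0.0268), vhp-1 (0.00148) and T24B8.5 (0.00349). In hrde-1 normoxia tir-1 (0.00127), nsy-1 (0.0202) and vhp-1 (0.0299) passed, 3 of 7 where 25.4% of all genes did. These 3 were lost with the compared groups alone (0.261, 0.448 and 0.512). Without P0 hrde-1 normoxia replicate 2 the adjusted p of tir-1 was 0.122 and that of nsy-1 0.635, and without replicate 1 of that group T24B8.5 passed (0.0072). The call of vhp-1 was lost without F1 hrde-1 normoxia replicate 2 (0.121) or F2 hrde-1 normoxia replicate 1 (0.0502), and that of nsy-1 without the former (0.0568). In hrde-1 hypoxia T24B8.5 passed (0.00809, 1 of 7 where 12.6% of all genes did), with group means of 51.5 CPM (P0), 16.3 (F1), 17.5 (F2) and 35.4 (F3). Its call was lost without P0 hrde-1 hypoxia replicate 2 (0.104), and with the compared groups alone sek-1 (0.0211) and vhp-1 (0.013) passed as well. In the mutant the P0 hypoxia effect of T24B8.5 exceeded the mean of F1 to F3 by 1.66 ± 0.40 (adjusted p 0.0382), 1 of 7 where 1.71% of all genes passed. That call was lost in 10 of the fits that leave out 1 library, with adjusted p from 0.0543 to 0.231, and with the compared groups alone (0.209). Without P0 hrde-1 normoxia replicate 1, 4 of the 7 passed, among them tir-1 (-1.41, adjusted p 0.00469), nsy-1 (-1.04, 0.00184) and sek-1 (-0.68, 0.042), and without F3 hrde-1 normoxia replicate 2 tir-1 passed (-1.17, 0.0127).

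Genes described as dependent on PMK-1 were followed as a list of 15 names, of which 14 were in the table and tested. This list and the further lists were chosen with earlier results of these data known. Their shares beside those of all genes describe these libraries and are no separate support. In F1 WT 10 of the 14 were higher with hypoxia and 1 was lower, where 5.34% and 8.54% of all genes were. Their median log2 fold change was 2.47, against -0.03 over all genes. The lysozyme gene lys-2 went from 1.97 and 5.83 CPM to 106 and 121 CPM, a log2 fold change of 4.84 ± 0.54 (adjusted p 7.82e-06). C17H12.8 went from 9.67 and 18.6 CPM to 93.1 and 90.5 CPM (2.69 ± 0.37, adjusted p 6.12e-05). F55G11.8 went from 0.717 and 1.32 CPM to 13.1 and 11.52 CPM (3.57 ± 0.57, adjusted p 0.000292). The infection response gene irg-5 went from 0.448 and 2.18 CPM to 36.6 and 23.2 CPM (4.46 ± 0.72, adjusted p 0.000343). In each of these genes the groups lay apart. The C-type lectin gene clec-60 went the other way, from 13 and 9.18 CPM in normoxia to 0.0925 and 0.172 CPM in hypoxia (adjusted p 0.00389).

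In F3 WT the list showed fewer calls, 3 of 14 higher and 1 lower, where 3.05% and 3.57% of all genes were, with a median of 0.96 against -0.14 over all genes. Those higher were lys-2 (2.53 ± 0.47, adjusted p 0.00319), irg-5 (2.46 ± 0.59, 0.0174) and C17H12.8 (1.23 ± 0.34, 0.035), and clec-60 was lower (adjusted p 0.0222). In P0 WT 1 of 14 was higher and 1 lower, where 19.1% and 22.8% of all genes were. K08D8.5 rose from 1.46 and 1.06 CPM to 11.9 and 10.9 CPM (3.16 ± 0.63, adjusted p 0.000729). The other, dod-24, fell from 713 and 718 CPM to 105 and 109 CPM (-2.74 ± 0.50, adjusted p 0.000377). Between the strains in F1 normoxia, which shares the WT libraries, 6 of 14 were higher in the mutant and 1 was lower, where 12.3% and 22.2% of all genes were. The level of lys-2 in the mutant was 124 and 106 CPM (4.85 ± 0.54, adjusted p 2.98e-06). In F3 normoxia 1 of 14, lys-2, was higher and 1, clec-60, lower, where 4.45% and 4.42% of all genes were. In P0 normoxia 2 of 14 were higher and 1 lower, where 15.2% and 7.32% of all genes were. There gst-38, a glutathione S-transferase gene, stood at 6.3 and 7.04 CPM in WT and at 150 and 19.8 CPM in the mutant. In the mutant 0 of 14 passed between hypoxia and normoxia in F1, F2 and F3 by edgeR, where 8.35%, 0% and 0.0129% of all genes did. In P0, where 5.84% of all genes passed, gst-38 alone of the 14 did, lower with hypoxia (-4.97 ± 0.72, adjusted p 0.000866). Its normoxia libraries are those at 150 and 19.8 CPM, and this call was not refitted without either of them.

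**Figure D4:**
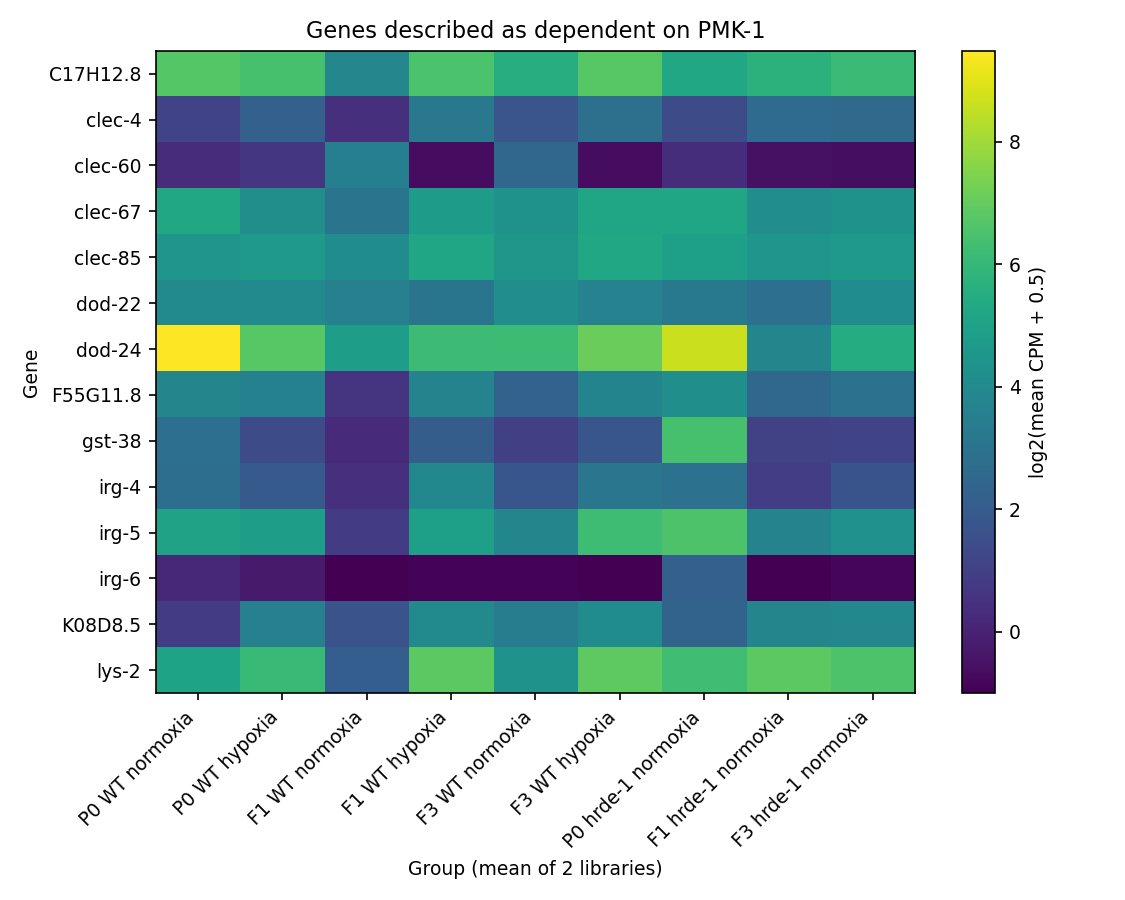
Group means of the 14 genes described as dependent on PMK-1, as log2(mean CPM + 0.5) by colour, in WT groups of P0, F1 and F3 and in hrde-1 normoxia. In F1 WT normoxia lys-2, C17H12.8, irg-5 and F55G11.8 are darker than in F1 WT hypoxia, and clec-60 is brighter.

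Genes that act upstream of or modulate p38 immunity, 16 tested of 17, were mostly lower where they passed in WT. In F1 WT 0 were higher with hypoxia and 6 lower, where 5.34% and 8.54% of all genes were, with a median of -0.60 against -0.03 over all genes. Among them were the receptor gene fshr-1 (-0.92 ± 0.17, adjusted p 0.00118), the mediator subunit gene mdt-15 (-0.48 ± 0.11, 0.00748) and olrn-1 (-1.66 ± 0.41, 0.0102). In P0 WT 1 was higher and 8 lower, where 19.1% and 22.8% of all genes were. The protein kinase D gene dkf-2 rose (0.65 ± 0.13, adjusted p 0.000679), and egl-30, a Gq alpha subunit gene, fell (-1.36 ± 0.21, 8.24e-05). The protein kinase C gene tpa-1 (-1.49 ± 0.29, 0.000652) and the receptor gene dcar-1 (-1.46 ± 0.29, 0.000735) fell as well. In F3 WT 2 were lower, mdt-15 (-0.45 ± 0.11, 0.0219) and olrn-1 (-1.37 ± 0.40, 0.0451), and 0 higher, where 3.57% and 3.05% of all genes were. Between the strains in F1 normoxia 8 of 16 were lower in the mutant and 0 higher, where 22.2% and 12.3% of all genes were. The phospholipase C gene egl-8 (-1.22 ± 0.21, adjusted p 0.000407) was among them. In F2 normoxia, with the remainder, fshr-1 was instead higher in the mutant (0.71 ± 0.17, adjusted p 0.0164). It was also higher in hypoxia of F2 (0.75 ± 0.17, 0.0134) and F3 (0.84 ± 0.17, 0.00472). For egl-30 these values were 0.73 ± 0.20 (0.0377), 0.73 ± 0.20 (0.0364) and 0.68 ± 0.20 (0.0369). In each of these comparisons 2 of 16 were higher and 0 lower, where 4.51%, 6.43% and 10.8% of all genes passed in either direction.

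Other MAP kinase modules were followed as 17 genes, all tested. In P0 WT, where 19.1% of all genes were higher and 22.8% lower, 4 rose with hypoxia, among them the Raf gene lin-45 (0.90 ± 0.16, adjusted p 0.000328), the phosphatase gene lip-1 (1.12 ± 0.25, 0.00181) and mek-1 (0.87 ± 0.20, 0.0021). In the same comparison, in which 12 of 12 germline and oocyte markers rose and 8 of 9 neuronal markers fell, 9 fell, among them the JNK family genes kgb-1 (-1.09 ± 0.23, 0.00107) and jnk-1 (-2.60 ± 0.56, 0.00129). The part of these markers in the counts was not tested. In F1 WT 1 rose, lip-1 (0.79 ± 0.25, 0.0412), and 1 fell, dlk-1 (-0.53 ± 0.17, 0.0435), where 5.34% and 8.54% of all genes did. In F3 WT 0 of 17 passed by edgeR, where 6.62% of all genes did, and the smallest adjusted p was that of lin-45 (0.43 ± 0.16, 0.105). Between the strains in F1 normoxia 4 of 17 were higher in the mutant and 4 lower, where 12.3% and 22.2% of all genes were. In P0 normoxia 1 was higher and 5 lower (15.2% and 7.32% of all genes), and in F3 normoxia 1 and 2 (4.45% and 4.42%). In F2 normoxia, with the remainder, 0 were higher and 1 lower, where 4.51% of all genes passed in either direction. The Nemo-like kinase gene lit-1 was lower in the mutant than in WT in normoxia of F1 (-1.34 ± 0.20, adjusted p 0.000111), F2 (-0.86 ± 0.20, 0.015, with the remainder) and F3 (-0.80 ± 0.20, 0.014). It was also lower in hypoxia of F1 (-0.81 ± 0.20, 0.0401) and F2 (-0.88 ± 0.20, 0.0136). There 1 and 2 of the 17 passed, all lower, where 1.98% and 6.43% of all genes passed in either direction.

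Of 10 other transcription factors of immunity and stress, all tested, 2 were higher and 1 lower with hypoxia in P0 WT. In F1 WT 1 was higher and 2 lower, and in F3 WT 2 were higher and 1 lower. Of all genes, 19.1% were higher and 22.8% lower in P0, 5.34% and 8.54% in F1, and 3.05% and 3.57% in F3. The gene hlh-30, the TFEB gene of autophagy and immunity, was lower with hypoxia in WT in P0 (-0.77 ± 0.26, adjusted p 0.0222), F1 (-1.19 ± 0.26, 0.00427) and F3 (-1.23 ± 0.26, 0.00783). In P0 hrde-1, where 5.84% of all genes passed, hlh-30 alone of the 10 did, also lower with hypoxia (-0.91 ± 0.26, 0.0429). That call was not refitted without single libraries. The level of hlh-30 was also lower in the mutant than in WT in normoxia of F1 (-1.09 ± 0.26, 0.0045) and F3 (-0.92 ± 0.26, 0.0283). In F1 WT pqm-1 was lower too (-1.46 ± 0.29, 0.00203), and atfs-1, the regulator of the mitochondrial unfolded protein response, was higher in F1 (0.43 ± 0.14, 0.0424) and F3 (0.56 ± 0.14, 0.0202). In P0 WT skn-1 (0.73 ± 0.14, 0.00066) and hsf-1 (0.55 ± 0.14, 0.0041) rose. Between the strains in F1 normoxia 2 of the 10 were higher in the mutant and 3 lower, where 12.3% and 22.2% of all genes were. Higher there were hsf-1 (0.57 ± 0.14, 0.00545) and atfs-1 (0.52 ± 0.14, 0.0086), and pqm-1 was lower (-1.71 ± 0.29, 0.000331). In P0 normoxia 2 were higher and 1 lower (15.2% and 7.32% of all genes), and in F3 normoxia 0 and 3 (4.45% and 4.42%). The gene daf-16 was lower in the mutant in normoxia of F1 (-0.38 ± 0.11, 0.0107), F2 (-0.49 ± 0.11, 0.0124, with the remainder) and F3 (-0.55 ± 0.11, 0.0019). It was also lower in F3 hypoxia (-0.49 ± 0.11, 0.00816), where 1 of the 10 was higher and 10.8% of all genes passed.

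The ZIP-2 branch of the pathogen response, which acts beside PMK-1, was represented by irg-1, irg-2 and irg-3. In P0 WT, where 19.1% of all genes rose and 22.8% fell, 0 of the 3 rose and 2 fell with hypoxia, with irg-3 at a log2 fold change of -3.41 ± 0.69 (adjusted p 0.000772). The gene irg-2 had 2 counts in all over the 16 hrde-1 libraries, both in 1 library, while the 14 WT libraries held between 0.448 and 11.85 CPM. It passed between the strains in normoxia of P0, F1, F2 (with the remainder) and F3 and in hypoxia of F1, F2 and F3, lower in the mutant, and its fitted folds against a group near 0 are not given.

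Markers of tissues moved with several of the 7 genes. Summed over 9 neuronal markers, the 6 WT normoxia libraries lay between 457 and 673 CPM. The other 24 lay between 303 and 661 CPM, and the 661 was P0 hrde-1 normoxia replicate 2. The higher library of F3 hrde-1 normoxia, at 503 CPM, also lay within the WT normoxia range. Over the 12 markers of germline and oocyte the WT normoxia sums lay between 3804 and 11880 CPM and the others between 8953 and 20230 CPM. Across the 30 libraries, on a log2 scale, nsy-1 correlated with the neuronal sum at r = 0.92, tir-1 at 0.84, sek-1 at 0.78, pmk-1 at 0.64 and T24B8.5 at -0.55. With the germline sum r was -0.86 for sek-1, -0.80 for nsy-1, -0.76 for tir-1, -0.75 for pmk-1, 0.64 for atf-7 and 0.44 for T24B8.5. These are descriptions over libraries that share their composition and scaling, with no test. The intestinal sum of 14 markers was 3830 and 5208 CPM at its lowest and highest in F1 WT normoxia and 5796 and 6343 CPM in F1 WT hypoxia, and its r with T24B8.5 was 0.07. In F3 WT the intestinal sums, 4619 and 6339 CPM in normoxia and 5854 and 6627 CPM in hypoxia, overlapped. Sums of the sperm (3.3 to 204 CPM in WT normoxia, 18.3 to 313.5 in the others), epidermal (701 to 1157, 512 to 2539) and muscle markers (3635 to 11680, 4196 to 14950) overlapped between WT normoxia and the other libraries. The part of these markers in the results of the 7 genes was not tested.

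**Figure D5:**
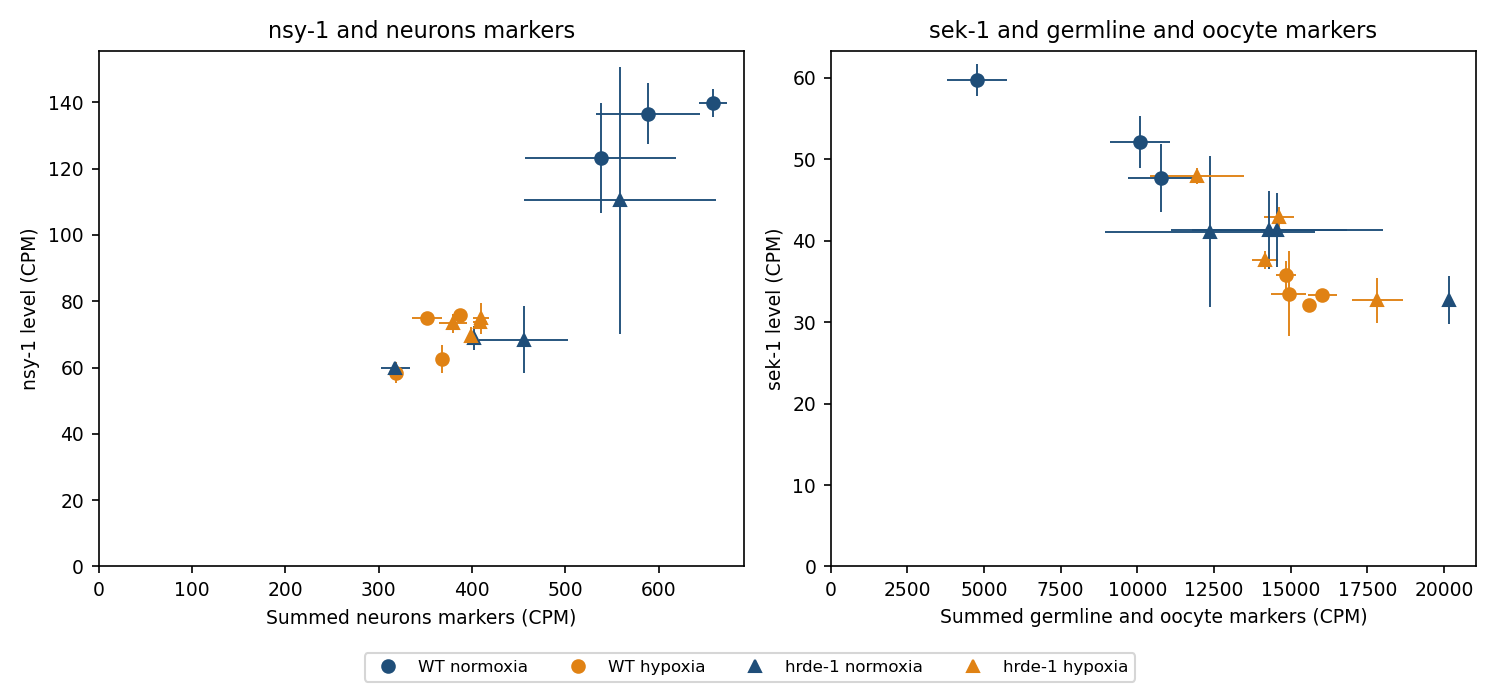
Left, nsy-1 against the sum of 9 neuronal markers; right, sek-1 against the sum of 12 germline and oocyte markers, both in CPM with group means and bars from the lower to the higher library for 15 groups, F2 WT normoxia left out. WT normoxia (blue circles) lies at the high end of the neuronal sum, from 457 to 673 CPM, and at the low end of the germline sum.

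The 7 genes varied together in part. Over the 30 libraries tir-1 correlated with nsy-1 at r = 0.92, with pmk-1 at 0.74 and with atf-7 at -0.88. The r of nsy-1 with sek-1 was 0.80, and that of vhp-1 with tir-1 was -0.01. T24B8.5 correlated at -0.69 with nsy-1, at -0.62 with tir-1, at -0.19 with pmk-1 and at 0.55 with atf-7. Among all genes tested, the 5 most like T24B8.5 by Pearson's r of log2(CPM + 0.5) were Y105C5B.15 (0.928), F53C11.1 (0.92), hpo-6 (0.914), F54E2.1 (0.909) and lys-2 (0.901). In F1 WT normoxia hpo-6 stood at 4.93 and 6.85 CPM and in F1 WT hypoxia at 35.1 and 40.1 CPM. The 5 most like pmk-1 were tba-5 (0.919), C06E7.88 (0.897), prkl-1 (0.889), gpb-2 (0.887) and Y23H5B.8 (0.886). All 5 had their highest library in P0 WT normoxia, as pmk-1 did, with prkl-1 at 26.1 and 51.8 CPM there and at most 23.6 CPM in any other library. These values carry no test, and the libraries share depth scaling and composition.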

How the data were processed

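Poly(A) RNA of whole worms was sequenced in 32 libraries, 2 for each of 16 groups. The authors deposited 1 table of estimated counts per gene. Per the submitters' processing notes, cutadapt 2.5, Bowtie2, featureCounts, RSEM and edgeR were used; which tool did which step, the genome build and the counting strand are not given in the sources. Reads that map to overlapping genes may therefore be shared. Totals ran from 9722580 to 16555982 per library, and TMM factors from 0.799 to 1.395.

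Estimated counts as deposited were rounded to whole numbers. They were fitted in edgeR 4.0.16 (R 4.3.3) by the quasi-likelihood test with Benjamini-Hochberg adjustment over 15536 genes that passed the filter on low counts, in 30 libraries of 15 groups. The 3 comparisons that need F2 WT normoxia came from a fit of 32 columns with the remainder (15545 genes). A gene was called at an adjusted p under 0.05. The SE is the absolute log2 fold change divided by the square root of the F statistic, not a standard error reported by the fit. Where a group has few counts, as T24B8.5 in F1 WT normoxia, it does not give the precision of the fold. Counting intervals are at 95% and cover counting error only. Positions are from Ensembl annotation of WBcel235, which held 46817 of the 46904 gene IDs, and 1 of 127 list entries had no match. Named genes are the 7 members, hrde-1, the 5 genes most like T24B8.5 and pmk-1, and from each list at most 3 called genes each way, ranked by p, or at most 2 where none passed, in P0 WT hypoxia against normoxia and wherever T24B8.5 passed. Values of irg-5 in F1 WT hypoxia, of gst-38 and irg-2, of lit-1 and daf-16 in F2 and in hypoxia, and of hlh-30 in P0 hrde-1 were added after they were seen. So were those of fshr-1 and egl-30 between the strains in F2 and in F3 hypoxia. The members and lists were chosen with earlier results of these data known. Replicate numbers were checked for pairing. Of 105 pairs of groups 18 had a correlation of deviations above 0.1, with a range from -0.682 to 0.551. The numbers thus showed no effect common to all groups. Whether some groups are paired, such as those of the same generation, was not settled by this check. Alternatives were DESeq2 1.42.0, its size factors, other filters, the deposited F2 columns and the compared groups alone. A replicate block and leaving out each library were the others. Of the named genes, only the 7 members were followed through them.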

Additional observations from a re-analysis of the deposited data

Results flagged for a closer look

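The hypoxia effect, meaning the hypoxia group against the normoxia group, differed between the strains in F1 and F3 in the edgeR fit of 30 libraries. That test shares its WT normoxia libraries with the comparisons within WT and between the strains in normoxia, so it is no separate support. In F1 the effect in hrde-1 minus that in WT was 1.746 for tir-1, 1.512 for nsy-1, 1.03 for sek-1 and -7.644 for T24B8.5 on the log2 scale, the last against a group with 3 counts. In F3 it was 1.982 for tir-1 and -3.865 for T24B8.5, and neither F3 call held with the compared groups alone.

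The hypoxia effect in this sense also differed between generations within a strain in the edgeR fit of 30 libraries. For T24B8.5, P0 minus the mean of F1 and F3 was -4.163 in WT, and P0 minus the mean of F1 to F3 was 1.656 in hrde-1. The WT value includes F1 WT normoxia, a group with 3 counts. The hrde-1 value had an adjusted p of 0.0382 in the edgeR test. Its call was lost with the compared groups alone and in several fits that leave out 1 library.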

How the results depend on the processing

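Of 3080 alternatives for the 7 genes, 2912 kept their side of the threshold, 76 passed newly, 91 no longer passed and 1 reversed. A change of sign was counted as a reversal only where a fit passed. Changes of sign where neither fit passed are among the 2912, and tests among generations have no direction. The reversal was tir-1 in hrde-1 against WT, F2 normoxia, 0.043 with the remainder and -1.617 with the deposited columns, which hold F1 and F3 libraries. Counts of the 7 genes called moved as follows, and the cause was not tested. With the deposited columns, hypoxia in F2 WT gave 3 in place of 0 and the F2 normoxia strain comparison 3 in place of 1. For hypoxia in P0 hrde-1 the count of 0 became 2 with no filter, 1 at 5 CPM in 2 libraries, 1 with the deposited columns and 2 in DESeq2. For hypoxia in F1 hrde-1 it became 1 in DESeq2. For the mean of the strains in hypoxia the count of 0 became 1 at 5 CPM and 2 in DESeq2. For P0 against the later WT generations the count of 1 became 3 at 5 CPM, 2 with the deposited columns and 3 in DESeq2. Among generations of hrde-1 hypoxia the count of 1 became 2 under these 3 settings.

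With the compared groups alone the count was 4 in place of 0 for hypoxia in F1 hrde-1, and between the strains in normoxia 0 in place of 3 in P0, 0 in place of 1 in F2 and 1 in place of 4 in F3. It was 1 in place of 0 between the strains in hypoxia of P0 and of F1, and 3 in place of 0 for their mean. It was 0 in place of 2 for the strain difference of the F3 hypoxia effect. For P0 against later generations it was 3 in place of 1 in WT and 0 in place of 1 in hrde-1. Among generations it was 4 in place of 2 in WT normoxia, 4 in place of 0 in WT hypoxia, 0 in place of 3 in hrde-1 normoxia and 3 in place of 1 in hrde-1 hypoxia.

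Leaving out 1 library gave 4 to 6 calls for hypoxia in P0 WT, 2 to 4 in F1 WT and 0 to 3 in P0 hrde-1. Between the strains in normoxia it gave 0 to 6 in P0, 3 to 4 in F1, 0 to 1 in F2 and 2 to 4 in F3, and 0 to 1 for the hypoxia mean. The strain difference of the hypoxia effect gave 0 to 2 in P0, 2 to 4 in F1 and 1 to 3 in F3. P0 against later generations gave 1 to 2 in WT and 0 to 4 in hrde-1. Among generations the counts were 1 to 3 in WT normoxia, 1 to 4 in hrde-1 normoxia and 0 to 1 in hrde-1 hypoxia. A group left with 1 library was assumed to vary like the others.

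The replicate numbers showed no effect common to all groups, and pairing of some groups is not excluded. With a replicate block 181 of 182 fold changes kept their side of the threshold, and sek-1 between the strains in P0 normoxia read -0.54 with an adjusted p of 0.052. DESeq2's size factors kept 180 of 182 and moved the median of all genes by at most 0.084. Depth limits T24B8.5 in F1 WT normoxia, at 3 counts in all.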
